A study of Mus musculus with 11 samples.

Results

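The genes described here encode inhibitors of oligodendrocyte differentiation. They are the Notch receptors Notch1, Notch2 and Notch3, the Notch ligand Jag1, the repressors Hes1, Hes5 and Hey1 and the inhibitors Id2, Id3 and Id4. They were chosen by symbol, and each of the 10 matched 1 of the 21534 gene regions in the deposited table. Their contact with the nuclear lamina was read from DamID-seq. Dam, a bacterial methyltransferase, marks the adenine of GATC. Fused to lamin B1, a protein of the lamina, it marks DNA near the nuclear envelope (Dam-LMNB1), and untethered Dam shows how accessible DNA is to free enzyme.

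Oligodendrocyte precursor cells (OPC) came from the cortex of C57BL/6 mice (labelled WT) at postnatal day 7. All received a lentiviral vector for 1 day, and the cells then spent 72 h in differentiation medium (labelled T3, here OL for oligodendrocyte) or in proliferation medium (labelled PF, here OPC). The groups were OL Dam-LMNB1 with 3 libraries (numbers 18, 19 and 20), OL Dam with 3 libraries (12, 13 and 14), OPC Dam-LMNB1 with 3 libraries (8, 9 and 10) and OPC Dam with 2 libraries (2 and 4). Each deposited score sets 1 Dam-LMNB1 library against all Dam libraries of the same condition as a pool, so 6 libraries have scores. A positive score is read as more Dam-LMNB1 than Dam methylation, that is, as lamina contact, and the log base is not stated, so differences are in score units and not folds. The assay records no expression, so the labelled cell type could not be checked against marker genes. A score is an average over a culture, in which contact in fewer cells and weaker contact in each cell cannot be told apart.

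Notch receptors are surface proteins that are cut after binding a ligand such as JAG1 on a neighbouring cell. The freed intracellular part enters the nucleus, joins the DNA-binding protein RBPJ and switches on Hes and Hey genes. HES and HEY proteins are basic helix-loop-helix repressors. ID proteins have the helix-loop-helix without the DNA-binding part, and they hold other factors of that class in inactive pairs. In OPC both groups are known for restraining myelin gene expression, and they are commonly described as turned down when cells differentiate.

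A score covers a gene with its flanks, so promoter, exons, introns and UTRs share 1 value. RefSeq promoters (assembly GRCm38.p6, 250 bases before and 50 after the annotated start) matched 8 of the 10 genes, all but Hes1 and Hey1. The deposited regions (mm10) reached to within 100 bp of 10 kb upstream of that start in 7 of the 8. The promoters of Jag1, Notch1 and Notch3 are shown because these regions had a higher score in OL than in OPC. That of Hes5, a direct Notch target, is shown for its RBPJ motif. Capitals mark GATC, the site that Dam methylates, and TGGGAA, the core of the RBPJ motif, on either strand (TTCCCA on the other).
Jag1, chr2:137116471-137116770, minus strand: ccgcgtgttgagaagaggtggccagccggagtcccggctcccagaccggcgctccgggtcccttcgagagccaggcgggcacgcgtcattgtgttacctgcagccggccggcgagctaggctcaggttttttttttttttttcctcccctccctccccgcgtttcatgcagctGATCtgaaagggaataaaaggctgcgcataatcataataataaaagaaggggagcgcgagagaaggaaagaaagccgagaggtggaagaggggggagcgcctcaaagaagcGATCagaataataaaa
Notch1, chr2:26503773-26504072, minus strand: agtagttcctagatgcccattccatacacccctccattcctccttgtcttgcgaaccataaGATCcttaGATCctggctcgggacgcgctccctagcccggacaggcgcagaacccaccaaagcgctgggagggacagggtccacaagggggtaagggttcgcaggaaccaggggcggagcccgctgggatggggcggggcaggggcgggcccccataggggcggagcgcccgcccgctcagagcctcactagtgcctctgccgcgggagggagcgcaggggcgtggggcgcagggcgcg
Notch3, chr17:32166841-32167140, minus strand: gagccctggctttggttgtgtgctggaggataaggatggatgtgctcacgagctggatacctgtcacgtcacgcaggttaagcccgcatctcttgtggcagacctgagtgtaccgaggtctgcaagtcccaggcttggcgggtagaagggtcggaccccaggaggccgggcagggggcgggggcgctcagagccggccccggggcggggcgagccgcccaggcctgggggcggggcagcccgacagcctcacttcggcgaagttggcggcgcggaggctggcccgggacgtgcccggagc
Hes5, chr4:154960673-154960972, plus strand: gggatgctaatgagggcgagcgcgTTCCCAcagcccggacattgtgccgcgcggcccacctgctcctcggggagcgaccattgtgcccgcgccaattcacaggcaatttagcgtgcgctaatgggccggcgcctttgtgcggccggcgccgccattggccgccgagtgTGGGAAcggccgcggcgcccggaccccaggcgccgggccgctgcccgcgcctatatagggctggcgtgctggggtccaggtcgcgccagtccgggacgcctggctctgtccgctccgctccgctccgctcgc

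GATC stood 2 times in the Jag1 promoter and 2 times in that of Notch1, 1 time in that of Notch2 and in none of the other 5. Of 32851 RefSeq promoters of this length, 48.0% held that site. The RBPJ core TGGGAA had 2 matches in the Hes5 promoter and 1 in that of Id4, and 25.6% of all promoters held it. No match of one motif overlapped one of the other. Within a window with no GATC there is no base for Dam to methylate, and Dam sites elsewhere in the gene and flanks were not counted here.

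How much of a region is gene differed by family. The Jag1 region was 47.1 kb wide and the 3 Notch regions 57.9 kb (Notch1), 149 kb (Notch2) and 58.0 kb (Notch3), and the gene itself filled from 74.5% (Jag1) to 91.9% (Notch2) of them. The Hes, Hey and Id genes are short, with regions of 13.4 kb (Hes5) to 15.7 kb (Hey1). Flanks made up from 66.4% (Id4) to 88.4% (Id3) of those, so their scores mostly describe the surrounding DNA. The Hes5 region (chr4:154950922-154964371) shared 76.2% of its length with the region of Pank4, a neighbouring pantothenate kinase family gene, and the 2 scores are not independent. The Notch1 region contains that of the microRNA gene Mir6996, and the Notch2 region shares 1.17% with that of Adam30.

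All 10 genes scored below 0, the side away from lamina contact, in both conditions. In OL, 10 of 10 had a mean score below 0 at an adjusted p under 0.05, where 70.9% of all regions did, and in OPC 10 of 10, where 71.4% did (limma over all regions, Benjamini-Hochberg). None lay above 0, as 25.9% of all regions did in OL and 25.5% in OPC. For Jag1 in OL the call below 0 was lost when each region was tested alone with unequal variances (adjusted p = 0.112). Every gene scored below 0 in each of the 6 libraries, which held for 70.0% of all regions, while 24.8% were above 0 in all 6. The median over the 10 genes was −1.93 in OL and −2.10 in OPC, and over all regions −1.47 in OL and −1.54 in OPC. The depth behind the scores is unknown, and counting error could not be estimated.

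**Figure D1:**
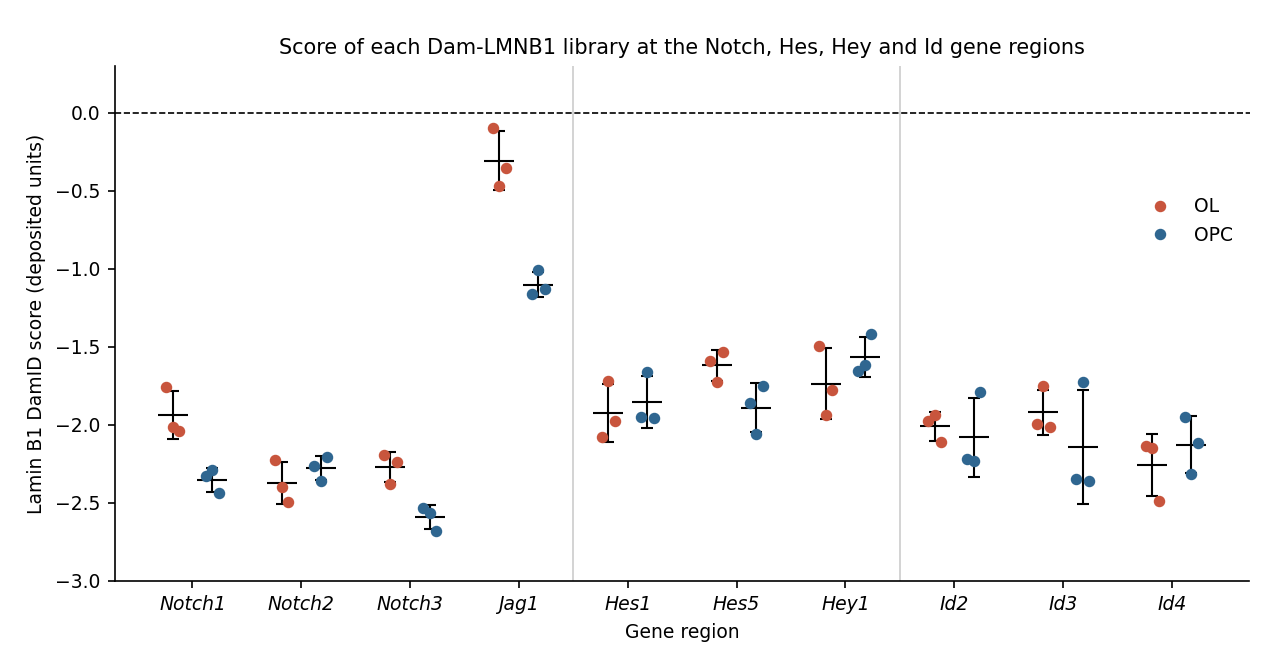
Lamin B1 DamID score (vertical axis, deposited units) of each library at the 10 gene regions, with 3 OL points left of 3 OPC points per gene, black bars for the mean and SD, and a dashed line at 0. Every point lies below 0, Jag1 lies highest in both conditions, and the OL points lie above the OPC points without overlap at Notch1, Notch3, Jag1 and Hes5.

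The order of the levels put Jag1 highest in both conditions. In OL it was followed by Hes5, Hey1, Id3, Hes1, Notch1, Id2, Id4, Notch3 and Notch2. In OPC the order was Jag1, Hey1, Hes1, Hes5, Id2, Id4, Id3, Notch2, Notch1 and Notch3. Most neighbours in these orders did not differ beyond their spread. The library ranges of adjacent genes were separate in 2 of 9 pairs in OL (Jag1 over Hes5, and Id2 over Id4) and in 3 of 9 pairs in OPC (Jag1 over Hey1, Hey1 over Hes1, and Notch1 over Notch3). Among all regions the Jag1 mean stood at the 69.1st percentile in OL and the 58.9th in OPC, and the Notch2 mean at the 8.98th in OL and the 19.5th in OPC.

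Between conditions, 3 of the 10 genes had a higher score in OL and 0 a lower one (limma, adjusted p under 0.05). Among all regions 23.0% were higher, 10.9% lower and 33.9% changed in either direction, so a share of 3 in 10 lies close to the background. The 3 were the ligand Jag1 and the receptors Notch1 and Notch3. The receptor Notch2, the 3 Hes and Hey genes and the 3 Id genes did not pass the test, and a difference between families was not tested. At an unadjusted p under 0.05, limma had 4 higher, Hes5 being the fourth, and 0 lower, where 31.4% of all regions were higher. OL and OPC libraries did not overlap for the same 4 genes, in each with OL above OPC, as in 33.5% of all regions (48.9% in either direction). The median difference was 0.15 over the 10 genes and 0.10 over all regions. Each difference may come from Dam-LMNB1 or from the Dam pool of a condition, which cannot be told apart in these scores, and no p-value includes the spread between Dam libraries.

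JAG1 is a transmembrane ligand of Notch receptors. Its region (chr2:137079450-137126520) scored −0.10, −0.47 and −0.35 in OL libraries 18, 19 and 20, against −1.16, −1.01 and −1.13 in OPC libraries 8, 9 and 10. Every OL library lay well above every OPC library, and all stayed below 0. The means were −0.31 ± 0.19 in OL and −1.10 ± 0.08 in OPC (SD, n = 3 each), a difference of 0.79 with an SE of 0.10 and an adjusted p of 9.45e-04 (limma), larger than in 99.4% of all regions. In OL its level was the nearest to 0 of the 10 genes, and its call against 0 there (limma adjusted p = 1.97e-03) was lost when each region was tested alone with unequal variances (adjusted p = 0.112).

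NOTCH1 is the receptor most studied in OPC. The Notch1 region (chr2:26455901-26513822) scored −1.76, −2.01 and −2.04 in OL libraries 18, 19 and 20, and −2.33, −2.29 and −2.44 in OPC libraries 8, 9 and 10. The groups did not overlap. The means were −1.94 ± 0.16 in OL and −2.35 ± 0.08 in OPC (SD, n = 3 each), a difference of 0.42 with an SE of 0.10 and an adjusted p of 0.0129 (limma). Mir6996, which lies within the region, had −1.98 in OL and −2.34 in OPC (difference 0.36, limma adjusted p = 0.0127).

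NOTCH3 is known chiefly from vascular mural cells. The Notch3 region (chr17:32118892-32176852) scored −2.20, −2.38 and −2.24 in OL libraries 18, 19 and 20, and −2.53, −2.56 and −2.68 in OPC libraries 8, 9 and 10. These groups did not overlap either, and the OPC mean of −2.59 ± 0.08 was the lowest of the 10 genes, against −2.27 ± 0.09 in OL (SD, n = 3 each). The difference was 0.32 with an SE of 0.09 (limma adjusted p = 0.0225). This call was lost with all libraries scaled to a common mean and SD (difference 0.18, adjusted p = 0.104), with quantile normalization (adjusted p = 0.111), and without OL library 20 (0.0669), OPC library 9 (0.0533) or OPC library 10 (0.0787).

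NOTCH2 is the third receptor measured here. The Notch2 region (chr3:98003537-98152367) scored −2.23, −2.40 and −2.49 in OL libraries 18, 19 and 20, and −2.26, −2.36 and −2.21 in OPC libraries 8, 9 and 10. The groups overlapped, and the difference of −0.10 (95% interval −0.31 to 0.12, limma adjusted p = 0.46) did not pass the test. With libraries scaled to a common mean and SD it was −0.23 (adjusted p = 0.0389), and with quantile normalization −0.25 (0.0323), so that Notch2 was then called lower in OL. A comparison of receptors within each library, chosen after their values were seen and given without a test, does not depend on a shift of the whole library. Notch1 minus Notch2 was 0.47, 0.39 and 0.45 in OL libraries 18, 19 and 20, and −0.07, 0.07 and −0.23 in OPC libraries 8, 9 and 10. Notch1 thus stood above Notch2 in every OL library, and by more than in any OPC library.

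The repressors Hes1 and Hes5 are the main Notch targets in neural precursors. The Hes1 region (chr16:30055356-30069796) scored −2.08, −1.72 and −1.97 in OL libraries 18, 19 and 20, and −1.95, −1.66 and −1.95 in OPC libraries 8, 9 and 10. The groups overlapped throughout, with a difference of −0.07 (95% interval −0.34 to 0.20, limma adjusted p = 0.681). Hes5 scored −1.59, −1.73 and −1.54 in OL libraries, and −1.86, −2.06 and −1.75 in OPC libraries. Its OL libraries lay just above its OPC libraries, and the difference of 0.27 missed the threshold (95% interval 0.05 to 0.50, limma adjusted p = 0.0635). Pank4, which shares most of that region, scored −1.81 ± 0.02 in OL and −2.22 ± 0.15 in OPC (SD, n = 3 each) and was called higher in OL (difference 0.41, limma adjusted p = 0.0112).

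HEY1 is a Notch-induced repressor related to the HES proteins. The Hey1 region (chr3:8661358-8677038) scored −1.49, −1.94 and −1.78 in OL libraries 18, 19 and 20, and −1.66, −1.62 and −1.42 in OPC libraries 8, 9 and 10. The groups overlapped, and the OL libraries were spread over 0.45 score units. Its difference of −0.17, with a 95% interval from −0.44 to 0.10, was the lowest of the 10 genes and did not pass the test (limma adjusted p = 0.301).

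ID2 and ID4 are the ID proteins best known for holding back oligodendrocyte differentiation, ID4 as a partner of the OLIG factors. The Id2 region (chr12:25091798-25106092) scored −1.98, −1.94 and −2.11 in OL libraries 18, 19 and 20, and −2.22, −2.23 and −1.79 in OPC libraries 8, 9 and 10. OPC library 10 lay above all 3 OL libraries and the other two OPC libraries below them. The Id4 region (chr13:48251426-48266036) scored −2.14, −2.15 and −2.49 in OL libraries, and −1.95, −2.31 and −2.12 in OPC libraries, again with overlap. The differences were 0.07 (95% interval −0.21 to 0.35) for Id2 and −0.13 (−0.41 to 0.16) for Id4, with limma adjusted p = 0.693 and 0.45.

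ID3 is a target of BMP signalling in many cell types. The Id3 region (chr4:136133821-136147392) scored −1.99, −1.75 and −2.02 in OL libraries 18, 19 and 20, and −2.35, −1.72 and −2.36 in OPC libraries 8, 9 and 10. OPC library 9 lay above all OL libraries, while the other two OPC libraries lay below them. The OPC spread was the widest of the 10 genes (SD 0.36), and the difference of 0.22 had a 95% interval from −0.15 to 0.60 (limma adjusted p = 0.316). Without OPC library 9 the difference was 0.43 and was called (adjusted p = 0.028).

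**Figure D2:**
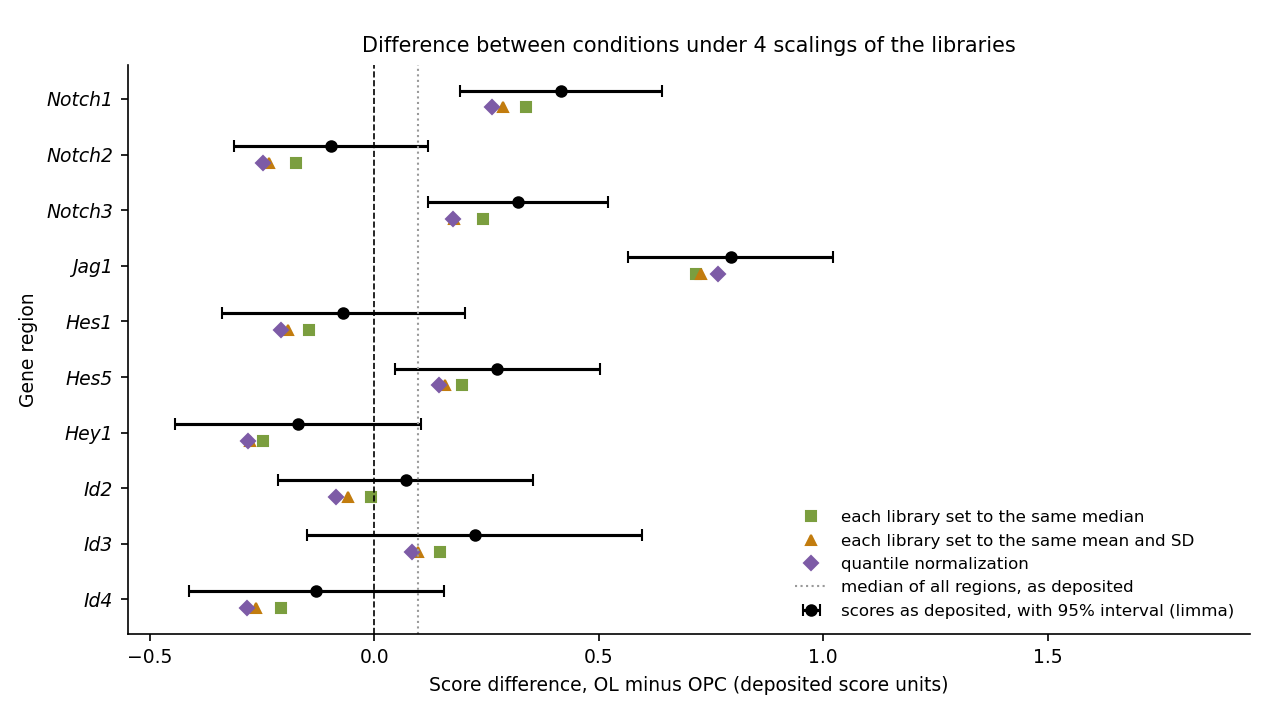
Score difference, OL minus OPC (horizontal axis, deposited score units), for each gene region, with black points and 95% limma intervals for the scores as deposited, coloured symbols for 3 other scalings of the libraries, and a dotted line at the median of all regions (0.10). Jag1 lies from 0.72 to 0.79 under all 4 scalings, and Notch2 moves from −0.10 as deposited to −0.25 with quantile normalization.

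The scaling of libraries moved the balance of calls. As deposited, 67.9% of the 7308 regions called were higher in OL, and with libraries scaled to a common mean and SD 50.5%. The number of genes called stayed at 3 of 10 under that scaling, with Jag1 and Notch1 higher (0.73 and 0.29) and Notch2 lower. Id2, with −0.06, was the 1 of the 10 genes whose difference changed sign under any of the 3 scalings. Jag1 and Notch1 kept their calls in every scaling and without any single library, and neither was called when each region was tested alone with unequal variances, which called 0 of the 10 genes and 4.3% of all regions. At an unadjusted p under 0.05 that test had 3 of the 10 higher and 0 lower, where 22.3% of all regions were higher. Likewise 0 of the 10 had an adjusted p under 0.05 in the authors' deposited table, where the lowest was 0.0843 for Jag1 and 3.14% of all regions were under 0.05.

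Lamina contacts extend over long stretches of DNA, so each gene was set beside the regions whose centre lay within 500 kb. Jag1 stood near regions in contact with the lamina. The nearest region, 7.67 kb away, was that of the SLX4-interacting protein gene Slx4ip at 0.95 ± 0.03 in OL and 0.72 ± 0.02 in OPC (SD, n = 3 each, limma adjusted p = 0.0207). Beyond it, Mkks, a chaperonin-like gene, scored −0.0032 in OL and −0.34 in OPC (limma adjusted p = 0.0234), and the synaptic gene Snap25 1.81 in OL and 1.93 in OPC. On the other side the nearest region, that of Btbd3, began 1142 kb away and scored −0.17 in OL and 0.15 in OPC. Farther out on that side lay regions above 0, such as Sptlc3, 2357 kb away (1.89 in OL and 2.13 in OPC). The DNA between Jag1 and Btbd3 has no score. Whether Jag1 lies at the edge of a lamina-contacting stretch or within one cannot be told.

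Of the 3 regions within 500 kb of Jag1, 2 were called higher and 0 lower (all regions 23.0% and 10.9%). The differences of the 3 ran from −0.12 to 0.34, all below the 0.79 of Jag1. Measured against the median of these neighbours in the same library, Jag1 lay at −1.26 in OL and at −1.82 in OPC on average, without overlap between the groups. With 3 neighbours that median was the score of Slx4ip, so this compares Jag1 with 1 region. Within 1 Mb, 4 of 5 regions were above 0 in all 6 libraries, and Jag1 had the largest difference there too. Jag1 was thus a low point among these regions, most of them in contact with the lamina but not Mkks. The gap between Jag1 and Slx4ip was smaller in OL.

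Notch1 lay in a gene-dense stretch where no scored region was in contact with the lamina. All 32 regions within 500 kb were below 0 in all 6 libraries, and 14 were called higher in OL and 0 lower (all regions 23.0% and 10.9%). The 14 are not all separate from Notch1 or from each other. They include Mir6996, which lies within the Notch1 region, and Egfl7, Mir126a and Mir126b, with centres 101 to 111 kb away. The difference of the neighbour medians was 0.19 (0.23 within 250 kb and 0.27 within 1 Mb), against 0.42 for Notch1. The median of the neighbours' own differences within 500 kb was 0.27. Next to it, Sec16a rose by 0.56 and Inpp5e by 0.61 on one side, and Egfl7, a vascular gene, by 0.32 on the other (limma adjusted p = 3.46e-03, 4.83e-03 and 0.0209). Notch1 ranked 6 of 33 by difference, so regions around it moved in the same direction and some by more. Around Notch3, 4 of 17 regions were higher and 0 lower (all regions 23.0% and 10.9%). The neighbour medians there were −1.96 in OL and −2.20 in OPC, and Notch3 ranked 3 of 18. The nearest region, Ephx3, 4.92 kb away, had a difference of −0.04. On the other side of Notch3, Pdxk-ps rose by 0.30 and Rrp1b by 0.31 (limma adjusted p = 0.0222 and 0.0192), close to the 0.32 of Notch3.

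**Figure D3:**
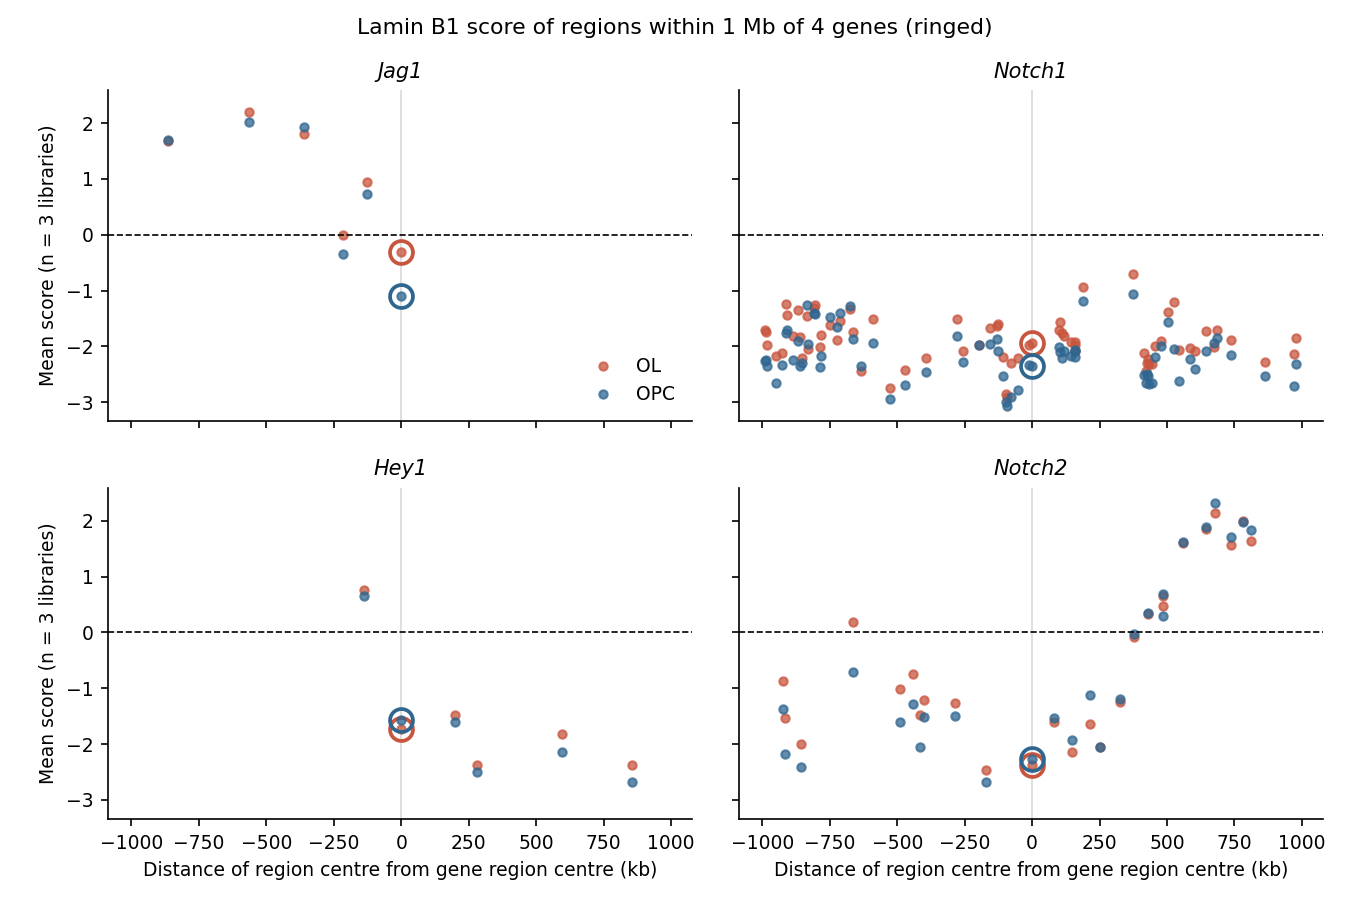
Mean score (vertical axis, n = 3 libraries per condition) of all regions whose centre lies within 1000 kb of Jag1, Notch1, Hey1 and Notch2, against distance of the centres in kb (horizontal axis), OL in red and OPC in blue, with the named gene ringed and a dashed line at 0. Jag1 lies below neighbours that are mostly above 0, and Notch1 lies among regions below 0. Notch2 and Hey1 have regions above 0 in both conditions on one side. On the other side of Notch2, Olfr1402 is above 0 in OL (0.19) and below in OPC (−0.71).

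Notch2 and Hey1 also had lamina-contacting regions nearby, without a call of their own. The nearest region above 0 in all 6 libraries began 220 kb from Notch2. It was the wider, 383 kb, of 2 regions of Zfp697 with the same start (0.65 in OL and 0.68 in OPC), and the narrower one, 61.5 kb, was below 0 (−1.25 in OL and −1.19 in OPC). For Hey1 it was the neuronal stathmin gene Stmn2, 97.8 kb from Hey1 (0.76 in OL and 0.65 in OPC). Around Notch2, 4 of 15 neighbours were higher and 1 lower (limma, adjusted p under 0.05), where 23.0% and 10.9% of all regions were. Of the 3 neighbours of Hey1, 0 were called in either direction, where 33.9% of all regions were. All 3 had a difference between 0.11 and 0.13, and Hey1 with −0.17 was the lowest of the 4.

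The other genes lay farther from scored regions in contact with the lamina. DNA between gene regions has no score here, so contacts there would not be seen. On one side of Id2, for example, the next region began 1199 kb away. The nearest region above 0 in all 6 libraries was 667 kb from Hes1, 957 kb from Notch3, 1357 kb from Hes5, 2142 kb from Id4, 5066 kb from Id2 and 7288 kb from Id3. Within 500 kb every region around these genes was below 0 in all 6 libraries. Among all regions 23.0% were higher and 10.9% lower. Around Hes1 1 of 6 was higher and 0 lower, around Hes5 3 of 16 higher and 3 lower, and around Id2 0 of 5 higher and 1 lower. Around Id3 4 of 22 were higher and 0 lower, and around Id4 2 of 6 higher and 0 lower. The 3 higher around Hes5 include Pank4, which shares most of the Hes5 region. Id4 had the lowest difference in its window, below all 6 neighbours (0.11 to 0.60), and so did Hes1 below its 6 (0.08 to 0.39). For Id4, the score minus the neighbour median was 0.21 in OL and 0.80 in OPC, and the groups did not overlap. Its neighbours, all on one side, included Mirlet7d, Mirlet7f-1 and Mirlet7a-1, with centres 281 to 283 kb away. These lie so close together that their scores are not independent. The 2 called higher were Mirlet7f-1 and Mirlet7a-1. Against the 1 region within 250 kb, Zfp169, the Id4 values were 0.03 in OL and 0.34 in OPC.

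Other genes of the pathway were read from 6 lists with 53 genes, each with 1 region. In OL, 52 of 53 were below 0 and 0 above (70.9% and 25.9% of all regions), and in OPC 51 below and 1 above (71.4% and 25.5%). Between conditions 15 were higher in OL and 5 lower, where 23.0% of all regions were higher and 10.9% lower. The median difference was 0.15, as over the 10 genes. Without OPC library 9 the counts were 5 higher and 5 lower, where 3136 and 1673 of all 21534 regions were. With libraries scaled to a common mean and SD they were 9 higher and 8 lower, where 3330 and 3261 of all regions were.

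**Figure D4:**
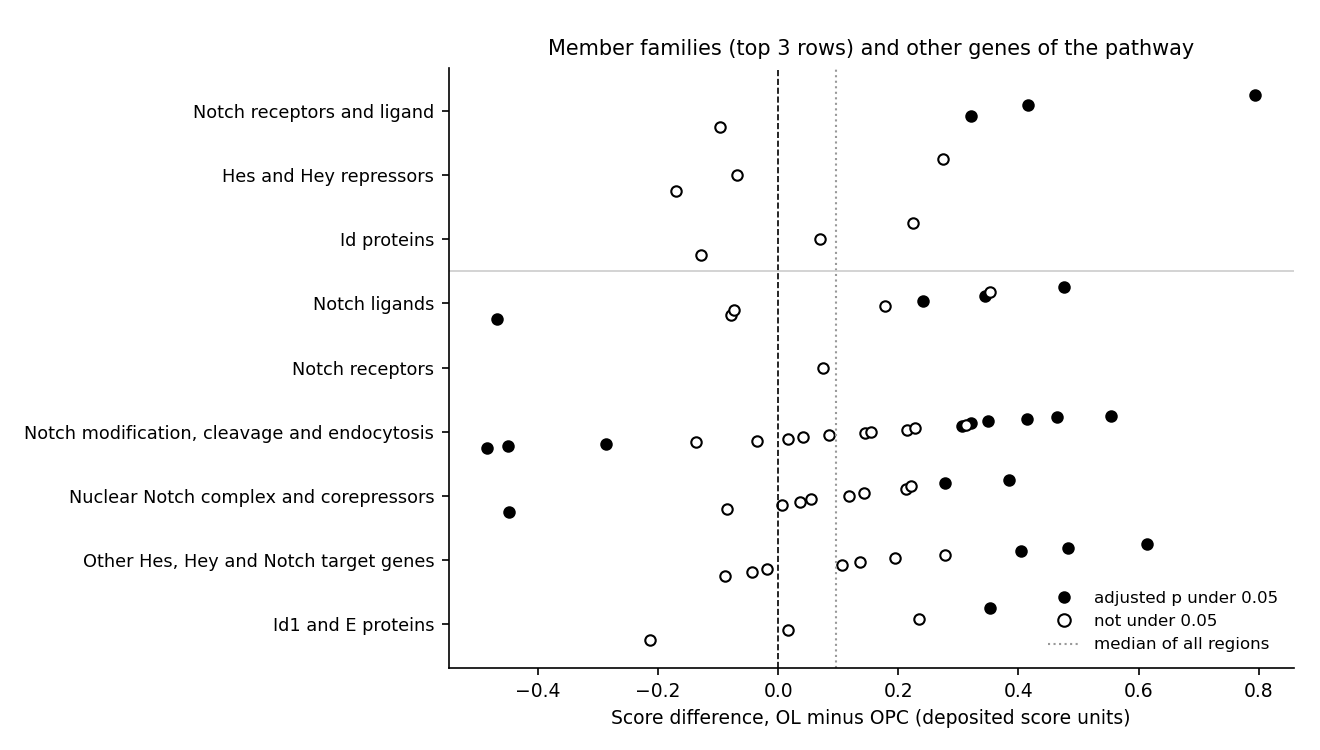
Score difference, OL minus OPC (horizontal axis, deposited score units), of the 10 genes by family (top 3 rows) and of 53 other pathway genes by list, with filled points for an adjusted p under 0.05 (limma), open points for the rest and a dotted line at the median of all regions. Of the 53 genes, 15 were called higher and 5 lower (all regions 23.0% and 10.9%). With libraries scaled to a common mean and SD these counts were 9 and 8 (3330 and 3261 of 21534 regions). The largest difference, 0.79, is that of Jag1.

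Among 8 other Notch ligands and ligand-like genes, 3 were higher and 1 lower (all regions 23.0% and 10.9%). The second Jagged gene, Jag2, had −1.08 ± 0.06 in OL and −1.32 ± 0.09 in OPC (difference 0.24, limma adjusted p = 0.0452). The delta ligands Dll3 and Dll4 were higher by 0.34 and 0.48 (limma adjusted p = 0.0163 and 0.0311). The OL and OPC libraries overlapped for Dll4 and not for Dll3. Dner, a neuronal transmembrane ligand, was lower, with −1.04 ± 0.03 in OL and −0.57 ± 0.01 in OPC (SD, n = 3 each, difference −0.47, limma adjusted p = 1.52e-03). Of the receptors, Notch4 had −1.31 in OL and −1.39 in OPC, with no call (limma adjusted p = 0.481).

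Of 19 genes for modification, cleavage and endocytosis, 6 were higher and 3 lower (all regions 23.0% and 10.9%). The fringe sugar transferases that tune ligand choice, Mfng and Lfng, were higher by 0.55 and 0.46, with Mfng at −1.29 ± 0.18 in OL and −1.85 ± 0.09 in OPC (SD, n = 3 each), and so was the gamma-secretase subunit Psenen, by 0.41. The Notch inhibitor Numb was lower, with −2.71 ± 0.29 in OL and −2.23 ± 0.14 in OPC, as were the ubiquitin ligases Itch (−0.45) and Mib1 (−0.29). The limma adjusted p was 4.83e-03 for Mfng, 0.0281 for Numb and 0.0111 for Mib1. The Numb call was lost without any 1 of 4 libraries (OL 19 or 20, OPC 8 or 10), with adjusted p from 0.0734 to 0.0884.

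Of 11 genes for the nuclear Notch complex and corepressors, 2 were higher and 1 lower (all regions 23.0% and 10.9%). Rbpj had −1.02 in OL and −1.16 in OPC, with no call (limma adjusted p = 0.168). The lower one was Tle1, a Groucho corepressor that HES proteins recruit, and it alone among the 53 lay above 0 at the threshold. Tle1 scored −0.23, −0.29 and −0.32 in OL libraries 18, 19 and 20, against 0.21, 0.13 and 0.17 in OPC libraries 8, 9 and 10. It thus lay on opposite sides of 0 in the 2 conditions, with a difference of −0.45 (limma adjusted p = 1.67e-03).

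Of 10 other Hes, Hey and Notch target genes, 3 were higher and 0 lower (all regions 23.0% and 10.9%). The feedback inhibitor gene Nrarp rose most, with −1.49 ± 0.18 in OL and −2.10 ± 0.05 in OPC (SD, n = 3 each, difference 0.61, limma adjusted p = 2.71e-03), followed by Bhlhe41 (0.48) and Hes6 (0.40). The Bhlhe41 call (limma adjusted p = 0.0432) was lost in 9 of 14 alternatives, among them each of 5 libraries left out, all but OL library 19. Hey2, the relative of Hey1, was the 1 gene on neither side of 0, with −0.09 in OL and −0.05 in OPC. Id1 and the E proteins, the usual partners of ID proteins, made up a list of 4 genes. Of these 1 was higher, Tcf3 by 0.35, and 0 were lower (all regions 23.0% and 10.9%). Id1 had −1.72 in OL and −1.51 in OPC (limma adjusted p = 0.09).

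For Jag1, which had both the highest level and the largest difference of the 10 genes, the regions most like it were sought among all others by the mean absolute difference over the 6 scores. They were Glt28d2 at 0.071, Cep295, a centriole gene, at 0.083 and Mfsd4b5 at 0.088. Glt28d2 had −0.44 ± 0.22 in OL and −1.09 ± 0.10 in OPC (SD, n = 3 each). None of the 3 lies on chromosome 2, where Jag1 lies.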

How the data were processed

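The submitters' processing notes name mm10 as the build, with BWA 0.7.17 and cutadapt 1.9.1. How reads became scores was not given in the sources used here. Per the file headers, the deposited score of each Dam-LMNB1 library is relative to the authors' pool of Dam libraries in its condition. The deposited p-value and adjusted p-value of each region are the authors' own. Scores were used as deposited, with no filter. limma 3.58.1 (R 4.3.3), checked on simulated data, was fitted over all 21534 regions with a mean for each condition and a variance trend (9.42 total degrees of freedom). The simulated noise was independent between regions and libraries and took its SD from the same fit. That check therefore cannot vouch for the calls reported here. Tests were two-sided with Benjamini-Hochberg adjustment over all regions at 0.05. No label says that libraries are separate cultures or animals, and the spread that p-values rest on may be technical. All 10 genes were named. Of the 53 pathway genes, the rule named up to 5 of the largest called rises and falls without overlap and any gene above 0. Others are list examples chosen after their values were seen. Genes and lists were chosen with earlier results of these data known. Alternatives were 3 scalings, 2 spread models, an unequal-variance test of each region alone, 2 region filters, each library left out, and windows of 250 kb and 1 Mb. The values of 1 neighbouring region are not reported here.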

Additional observations from a re-analysis of the deposited data

How the results depend on the processing

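The OL and OPC libraries share no replicate number and no label pairs them, so no paired analysis was made. Whether they were prepared in pairs is unknown. Of 154 counts under 14 alternatives, 136 stayed within 1.5 times. Testing each region alone with unequal variances called 925 regions (566 higher, 359 lower in OL), 0 of the 10 genes (0 higher) and 3 of the 53 pathway genes (1 higher, 2 lower). With libraries scaled to a common mean and SD, and with quantile normalization, 1 of the 10 genes was lower, and of the 53 genes 9 were higher and 8 lower. Of all regions 3330 were then higher and 3261 lower at a common mean and SD, and 3348 and 3278 with quantile normalization. Leaving out 1 library gave 4809 to 6581 regions called, 3136 to 4132 of them higher, and 10 to 19 of the 53 pathway genes, 5 to 15 of them higher, with each lowest count without OPC library 9. It left 2 or 3 of the 10 genes called. No called difference of the 10 genes changed sign. That of Hes1 ran from −0.17 to 0.03 with 1 library left out, above 0 without OL library 18 (0.0097) or OPC library 9 (0.027). That of Id2 ran from −0.0076 (without OPC library 9) to 0.22, and was −0.059 at a common mean and SD, −0.0080 at a common median and −0.084 with quantile normalization. The cause was not tested. Neighbour medians moved with the window in 15 of 20 comparisons. For Jag1 their difference was 0.29 within 250 kb and −0.02 within 1 Mb, and for Notch2 −0.21 and 0.33. Read depth is unknown, and so is the number of Dam sites behind the short Hes, Hey and Id regions.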
